A study of Mus musculus with 3 samples.

Results

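ABC transporter genes other than Abca1 and Abcg1 were examined in mouse CD8 T cells grown with and without added cholesterol. The genes were all those with a named probe set whose symbol is Abc, a letter from a to g and a number, with Abca1 and Abcg1 left out. They numbered 46 of 19505 named genes, each with 1 probe set. All cells were CD8 T cells activated by CD3 and CD28 engagement and kept in Tc1 cytokines, which favour cytotoxic effector cells. The control received no cholesterol, and the other groups received 0.5 or 0.75 µg/ml cholesterol. Total RNA of each group was hybridised to 1 whole-transcript array, so no difference can be set against a spread between replicates and none was tested, and precision is limited by this number of arrays. Mouse strain, age, number of animals and cultures, time in cholesterol and carrier are not stated in the labels, so effects of cholesterol and of a carrier cannot be told apart.

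ABC proteins bind and split ATP through paired nucleotide-binding domains, and most use that energy to move a substrate across a membrane. They fall into subfamilies by sequence. ABCA members mostly handle lipids, ABCB members handle drugs, peptides, bile compounds and mitochondrial substrates, ABCC members export conjugated anions and nucleotides or regulate channels, and ABCD members serve peroxisomes and lysosomes. ABCE and ABCF members have no membrane-spanning part and act on ribosomes and translation, and ABCG members move sterols, drugs and urate. Abca1 and Abcg1 export cholesterol from cells and are classic targets of the oxysterol receptor LXR. For orientation, Abca1 had intensities of 16.5, 32.6 and 162 and Abcg1 of 135, 280 and 431, in the order of control, 0.5 and 0.75 µg/ml, which is the order of all sets of 3 intensities below.

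The 3 arrays had median intensities of 32.4 to 33.0. The 95th percentile of 5222 negative-control probe sets was 98.3 to 102 on the arrays, and the highest, 102, is called the background level here. Of the 7 markers of T and CD8 T cells, 6 were above it on every array, and the seventh, Prf1, was at 129, 188 and 93.9. The summed level of these markers was 23368, 23651 and 22127, with Gzmb the largest part at 7611, 7741 and 8136. The sum adds intensities of different probe sets and does not measure the content of CD8 T cells. Cd8a, Cd8b1 and Cd3d differed by -0.35, -0.34 and -0.34 on the log2 scale at 0.75 µg/ml. Prf1, whose value at this dose was under background, had a measured difference of -0.46. Cd3g differed by -0.09, Cd3e by 0.07 and Gzmb by 0.10, so the markers did not share one direction. The part of these differences in the results below was not tested. None of the 2 CD4 T cell, 7 macrophage, monocyte and dendritic cell, 2 NK cell and 3 erythroid and platelet markers measured was above background on any array. Of 4 B cell markers, Cd79b was at 111, 100.3 and 105, and of 4 neutrophil and mast cell markers, Kit was at 133, 88.3 and 42.4.

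Most of the transporter family was under background, and the genes past the level filter all differed less than 2-fold between any pair of arrays. Of the 46 genes, 15 were above background on all 3 arrays, 3 on some and 28 on none. The share above on all arrays was 32.6%, against 37.5% of all named genes, and the share under on all arrays was 60.9%, against 58.9%. A stricter background changed this most, since only Abcb9 and Abce1 stayed above the 99th percentile of the negative controls, 670.1, on all arrays. All 3 ABCF genes and the single ABCE gene were above background throughout, as were 4 of 9 ABCB, 4 of 10 ABCC, 2 of 15 ABCA, 1 of 5 ABCG and 0 of 3 ABCD genes. A level in these bulk samples does not separate fewer expressing cells from less RNA per cell. Levels of different probe sets cannot be compared with each other, so each gene is read only against the background level and against itself on the other arrays.

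**Figure D1:**
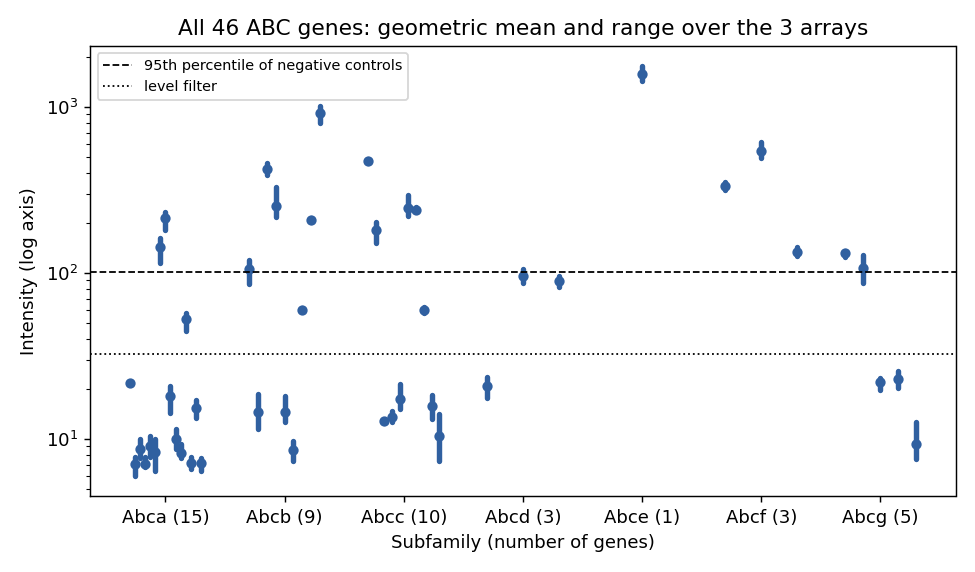
Each of the 46 genes is drawn as a point at its geometric mean intensity on a log axis, with a bar for its range over the 3 arrays, grouped by subfamily. The dashed line is the background level of 102 and the dotted line the level filter of 32.4. Most bars are short, and 24 genes lie under both lines.

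The level filter, a mean intensity of at least 32.4, passed 22 of the 46 genes (47.8%) and 56.1% of all named genes. None of the 22 differed 2-fold in any comparison. Among all genes past the filter the share with such a difference was 0.146% for the lower dose against the control, 1.93% for the higher dose and 1.59% between the doses. At a lower bar of 1.5-fold the counts were 0 of 22 at 0.5 µg/ml (1.94% of all genes), 0 of 22 at 0.75 µg/ml (7.08%) and 1 of 22 between the doses (5.52%), the P-glycoprotein gene Abcb1b, which was higher (1.8% of all genes). Read against these shares, such counts among 22 genes lie close to the background. Outside the filter, 3 genes under background on all arrays differed at least 1.5-fold at 0.75 µg/ml in measured intensity, Abcc9 by -0.93, Abca17 by 0.65 and Abcg8 by 0.60 on the log2 scale, and no fold is given for such dim values. The median log2 difference over all 46 genes was 0.00 (95% interval over genes -0.08 to 0.08) at 0.5 µg/ml, 0.02 (-0.08 to 0.19) at 0.75 µg/ml and 0.00 (-0.09 to 0.13) between the doses, beside medians of 0.00, 0.01 and 0.00 over all named genes. Of the 15 genes above background on all arrays, 9 exceeded their control value at 0.5 µg/ml, where 53.9% of all such genes were. At 0.75 µg/ml 8 of the 15 were above the control, against 51% of all such genes. Between the doses 8 of 15 were higher at 0.75 µg/ml, against 46.7%. The median log2 difference of the 15 was 0.03 at 0.5 µg/ml, 0.05 at 0.75 µg/ml and 0.04 between the doses. For all genes above background on all arrays it was 0.01, 0.01 and -0.01.

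The positive-control probe sets give a rough and wide measure of how far 2 of these arrays differ for control probe sets. Of 1165 such probe sets past the level filter, the middle 95% of log2 differences ran from -0.59 to 0.61 at 0.5 µg/ml, from -0.61 to 0.66 at 0.75 µg/ml and from -0.55 to 0.61 between the doses. Every one of the 22 transporter genes past the filter lay inside these ranges in all 3 comparisons. Between the doses most genes did. There 1.49% of all genes past the filter had a difference above 0.62 and 4.20% had one below -0.56. Lying inside the ranges thus does not set the transporter genes apart. Abcg1 lay outside the ranges at both doses, with 1.06 and 1.68. The SD over the 22 genes was 0.19, 0.29 and 0.26 in the order of the comparisons. It was 0.21, 0.36 and 0.32 over all genes past the filter, and 0.30, 0.31 and 0.30 over the positive controls. The positive controls thus spread more than all genes at 0.5 µg/ml, and less at 0.75 µg/ml and between the doses. Lying inside their range is therefore a loose criterion.

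**Figure D2:**
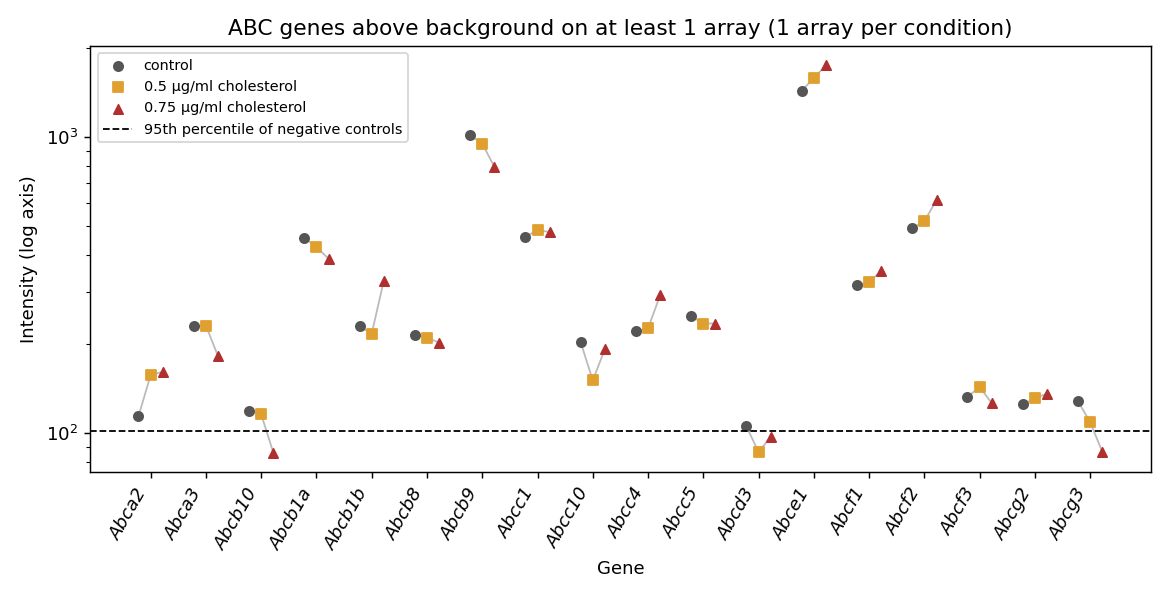
Intensity on a log axis of the 18 genes above background on at least 1 array, with a circle for the control, a square for 0.5 µg/ml and a triangle for 0.75 µg/ml cholesterol, 1 array each. The dashed line is the background level of 102, and Abcb10, Abcd3 and Abcg3 cross it.

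Among the lipid transporters of the ABCA group, 2 of 15 genes were above background, and they went different ways. Abca2, which encodes a transporter of late endosomes and lysosomes with a part in lipid handling, was at 114, 157 and 161. Both cholesterol arrays were thus above the control and close to each other, with log2 differences of 0.46 and 0.50 from the control. At 0.5 µg/ml only 2.14% of all genes past the filter had a higher difference than Abca2, and at 0.75 µg/ml 3.99% had. Abca3, known for loading phospholipid into the surfactant bodies of the lung, was at 231, 231 and 182. Its control and 0.5 µg/ml values were alike, and the 0.75 µg/ml array was lower by a log2 difference of -0.34.

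The other 13 ABCA genes had intensities of 5.99 to 57.5 and were under background on every array. Among them, Abca7, a phospholipid exporter active in phagocytes, was at 56.9, 44.7 and 57.5, and Abca13 was at 5.99, 7.80 and 7.48. In the mouse reference annotation Abca8b, Abca8a, Abca9, Abca6 and Abca5 are direct neighbours on chromosome 11, and these 5 genes had intensities of 6.44 to 17.1. The neighbours Abca14, Abca15 and Abca16 on chromosome 7 were at 6.72 to 10.4. Abca17 lies next to Abca3 on chromosome 17 and was at 6.37, 8.95 and 9.97, under background beside a neighbour that was above it. Abca4, the retinoid transporter of photoreceptors, and Abca12, the lipid transporter of the skin barrier, were at 14.4 to 20.8 and 21.7 to 21.8.

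The P-glycoprotein genes of the ABCB group differed in direction between close relatives at 0.75 µg/ml. Rodents have a pair of these drug efflux pumps, encoded side by side on chromosome 5 with Abcb4, the bile phospholipid transporter. Abcb1a was at 459, 426 and 389, a stepwise decline with log2 differences of -0.11 and -0.24 from the control. Abcb1b was at 230, 217 and 328, so its 0.5 µg/ml value was slightly under the control and its 0.75 µg/ml value above both. Its log2 difference was -0.08 at 0.5 µg/ml, 0.51 at 0.75 µg/ml and 0.60 between the doses, or 1.51-fold. Of all genes past the filter, 1.71% had a higher difference between the doses and 3.71% a higher one at 0.75 µg/ml against the control. The neighbour Abcb4 was under background at 12.7, 18.1 and 13.1. Transcripts of Abcb1a and Abcb1b are similar in sequence, and cross-hybridisation between their probe sets was not tested.

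The sequences just before the starts of this pair are shown because the genes are neighbours with different values. Each is 250 bases upstream of a RefSeq start on GRCm38.p6, read 5′ to 3′. They lie on the plus strand at chr5:8566841-8567090 for Abcb1a and chr5:8797897-8798146 for Abcb1b. Capitals mark matches on either strand to 1 of 7 motifs searched, which were the TATA box (TATAAA), the CCAAT box, the GC box (GGGCGG), a sterol response element (TCACNCCAC), an LXR direct repeat (AGGTCA, then any 4 bases, then AGGTCA again), an antioxidant response element (TGACNNNGC) and an E-box (CACGTG).
Abcb1a: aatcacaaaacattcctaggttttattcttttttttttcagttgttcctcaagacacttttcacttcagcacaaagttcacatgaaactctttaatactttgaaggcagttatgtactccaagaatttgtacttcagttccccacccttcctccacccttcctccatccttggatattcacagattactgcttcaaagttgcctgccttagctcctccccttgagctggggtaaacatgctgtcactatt
Abcb1b: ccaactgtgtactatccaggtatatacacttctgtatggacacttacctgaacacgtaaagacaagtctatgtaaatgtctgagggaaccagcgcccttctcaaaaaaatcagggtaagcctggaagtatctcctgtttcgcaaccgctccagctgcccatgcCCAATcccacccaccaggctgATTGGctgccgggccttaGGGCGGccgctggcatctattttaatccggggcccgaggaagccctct
The Abcb1a window held none of the 7 motifs and had a GC content of 40.4%. The Abcb1b window had 52.8% GC, with CCAAT matches at 87 to 83 and 66 to 62 bases before the start and a GC box at 48 to 43. A global alignment of both windows had 47.2% identical positions, against 42.0% for Abcb1a and Abca2, a gene of another subfamily. With 1 such pair for comparison, the usual identity between windows is not known. Of 32536 distinct windows of this length in the table, 33.8% held a CCAAT match and 33.0% a GC box, so neither letter string is rare, and a match describes the letters only.

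The intracellular ABCB genes were flat or lower at 0.75 µg/ml. Abcb9, the peptide transporter of the lysosome membrane and a relative of TAP, was at 1017, 953 and 796. It was lower at each step, with a log2 difference of -0.35 at 0.75 µg/ml, which 11.6% of genes past the filter exceeded in that direction. Abcb8, a transporter of the inner mitochondrial membrane, was at 215, 211 and 202, or -0.09. Abcb10, which supports heme synthesis from the same membrane, was at 119, 116 and 85.9. The last value is under background, so its measured log2 difference of -0.47 is read as at least 1.17-fold lower at 0.75 µg/ml. Abcb6, the porphyrin transporter, was under background at 61.5, 59.4 and 59.4. Also under background were Abcb5, at 9.70, 8.71 and 7.39, and the bile salt pump gene Abcb11, at 14.2, 18.7 and 11.5.

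In the ABCC group 4 of 10 genes were above background. Abcc1, which encodes the exporter of glutathione conjugates and leukotriene C4 known as MRP1, was at 461, 487 and 479, within a log2 difference of 0.08 of the control at both doses. Abcc4, an exporter of cyclic nucleotides and prostaglandins, was at 221, 226 and 293. Its control and 0.5 µg/ml values were alike and the 0.75 µg/ml array was higher, by a log2 difference of 0.40 that 6.70% of genes past the filter exceeded. Abcc5, a related exporter of cyclic nucleotides, was at 249, 235 and 235. Its values at both doses were identical, and 5 of the 46 genes had the same value on a pair of arrays, as 9.22% of all named genes did. Abcc10, a multidrug exporter, was at 203, 151 and 193, so the 0.5 µg/ml array alone was low, by -0.43, and 2.43% of genes past the filter were lower there.

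The other 6 ABCC genes were under background on all arrays, between 7.37 and 62.4. Abcc6, linked to ATP release in the liver, was at 62.4, 60.9 and 57.1. Abcc9, a sulfonylurea receptor subunit of potassium channels, was at 14.1, 10.9 and 7.37, and its relative Abcc8 was at 13.1, 18.5 and 16.4. The liver exporters Abcc2 and Abcc3 were at 12.6 to 14.8 and 15.1 to 21.4.

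**Figure D3:**
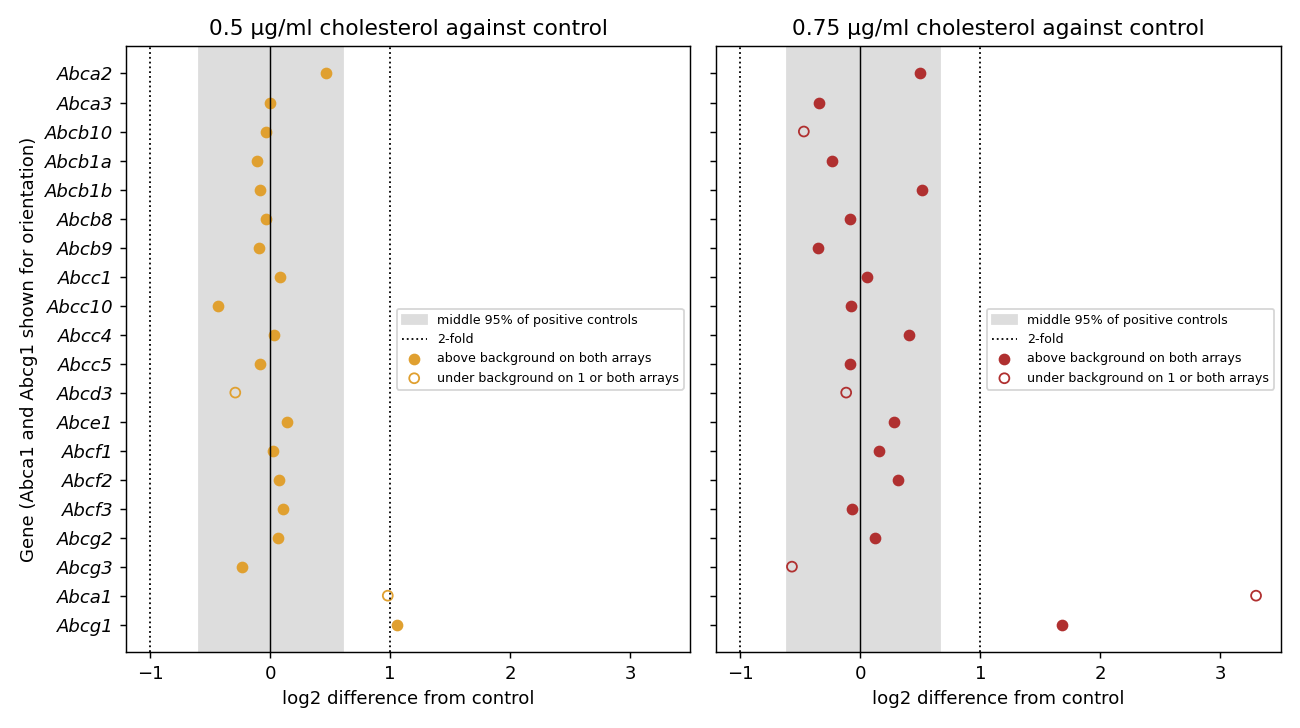
Log2 difference from the control at 0.5 µg/ml (left) and 0.75 µg/ml (right) of the 18 genes above background on at least 1 array, with Abca1 and Abcg1 at the bottom. Grey marks the middle 95% of positive controls, dotted lines mark 2-fold, and open symbols have a value under background on 1 or both arrays. All 18 lie inside the grey band, and Abca1 and Abcg1 lie to its right in both panels.

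The ribosome-linked members had values above background on all 3 arrays and small differences. Abce1, an essential factor that splits ribosomes after termination so that they can be used again, was at 1439, 1588 and 1753. It was higher at each step, with log2 differences of 0.14 and 0.29 from the control. Abcf2 was at 493, 521 and 614, also higher at each step, with 0.08 and 0.32. Abcf1, a translation initiation factor that binds eIF2, was at 317, 324 and 354, with 0.03 and 0.16. Abcf3 was at 133, 143 and 126, with no step in 1 direction. At 0.75 µg/ml 12.9% of genes past the filter had a higher difference than Abce1 and 11.1% a higher one than Abcf2.

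ABCD and ABCG genes were mostly near or under background. Abcd3, the fatty acid transporter PMP70 of the peroxisome membrane, was at 106, 86.4 and 97.3, above background only in the control and so at least 1.04-fold lower at either dose. Abcd4, which carries cobalamin out of lysosomes, was under background at 96.3, 82.3 and 91.2, and Abcd2, another peroxisomal fatty acid transporter, was at 17.6, 21.8 and 23.5. Abcg2, an exporter of drugs and urate, was at 125, 131 and 136, within a log2 difference of 0.12 of the control. Abcg3, a rodent relative of Abcg2, was at 128, 109 and 86.6. It was lower at each step, and with the 0.75 µg/ml value under background it was at least 1.26-fold lower there. Its measured log2 difference of -0.57 rests on that dim value.

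The sterol exporters among the remaining ABCG genes were not above background. Abcg5 and Abcg8, whose products pair to export sterols from liver and gut cells and which are LXR targets in those tissues, were at 20.3, 23.6 and 25.6 and at 8.34, 7.60 and 12.7. They are neighbours on chromosome 17. Abcg4, a close relative of Abcg1 best known in the brain, was at 22.9, 19.6 and 23.3. These 3 genes stayed under background at the dose at which Abca1 and Abcg1 were at 162 and 431.

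Promoter windows were found in the RefSeq table for 37 of the 46 genes, 44 windows in all. The sterol response element matched 1 of the 44, that of Abca3, and 1.05% of all windows in the table. The LXR repeat matched 0 of 44 and 0.0154% of all windows, and that strict spelling says nothing of looser sites or sites further away. The antioxidant response element matched 4 of 44 windows, those of Abcc2, Abcc4 and Abcc10, beside 10.2% of all windows. At 0.75 µg/ml Abca3 and Abcc4 differed from the control by -0.34 and 0.40, inside the positive-control range. A link between matches and these differences was not tested. The windows of Abca3 and Abcc4 are shown as examples of such matches. They are chr17:24351773-24352022 on the plus strand for Abca3 and chr14:118706220-118706469 on the minus strand for Abcc4, on GRCm38.p6, with capitals as before.
Abca3: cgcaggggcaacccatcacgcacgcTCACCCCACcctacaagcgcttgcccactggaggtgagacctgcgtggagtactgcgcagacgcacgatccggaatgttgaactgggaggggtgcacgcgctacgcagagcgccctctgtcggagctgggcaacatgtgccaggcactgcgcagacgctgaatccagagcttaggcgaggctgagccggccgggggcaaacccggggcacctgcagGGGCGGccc
Abcc4: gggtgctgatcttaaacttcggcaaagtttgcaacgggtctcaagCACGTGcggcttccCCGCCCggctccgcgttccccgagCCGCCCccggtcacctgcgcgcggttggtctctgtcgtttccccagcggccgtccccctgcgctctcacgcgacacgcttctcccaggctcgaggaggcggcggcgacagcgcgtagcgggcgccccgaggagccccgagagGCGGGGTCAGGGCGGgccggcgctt
In Abca3 the sterol response element lay 225 to 217 bases before the start and a GC box 9 to 4 bases before it. In the Abcc4 window shown, the antioxidant response element lay at 25 to 17, directly beside a GC box at 16 to 11. Further GC boxes lay at 191 to 186 and 167 to 162 and an E-box at 205 to 200. Another Abcc4 window, not shown, held an antioxidant response element at 23 to 15 and no other motif searched. Whether any factor binds these letters in the cells was not measured.

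ABC proteins named outside the scheme included the TAP subunits, which pump peptides into the endoplasmic reticulum for MHC class I. Tap1 was at 2288, 2109 and 1777, and Tap2 was at 1618, 1424 and 1261. Both were lower at each step, with log2 differences of -0.36 and -0.36 at 0.75 µg/ml. Cftr, the chloride channel gene, was under background at 9.42, 6.76 and 7.99. The peptide loading partners did not share one direction. All 7 were above background, and 3 were higher and 4 lower than the control at 0.75 µg/ml, with a median of -0.03. The share higher among all genes above background on all arrays was 51% at this dose, and the counts for the next lists are read against that share too. Tapbp, which bridges TAP and class I molecules, was at 1630.1, 1544 and 1246, or -0.39, and its relative Tapbpl differed by -0.22. The chaperones Calr and Canx differed by 0.33 and 0.26.

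**Figure D4:**
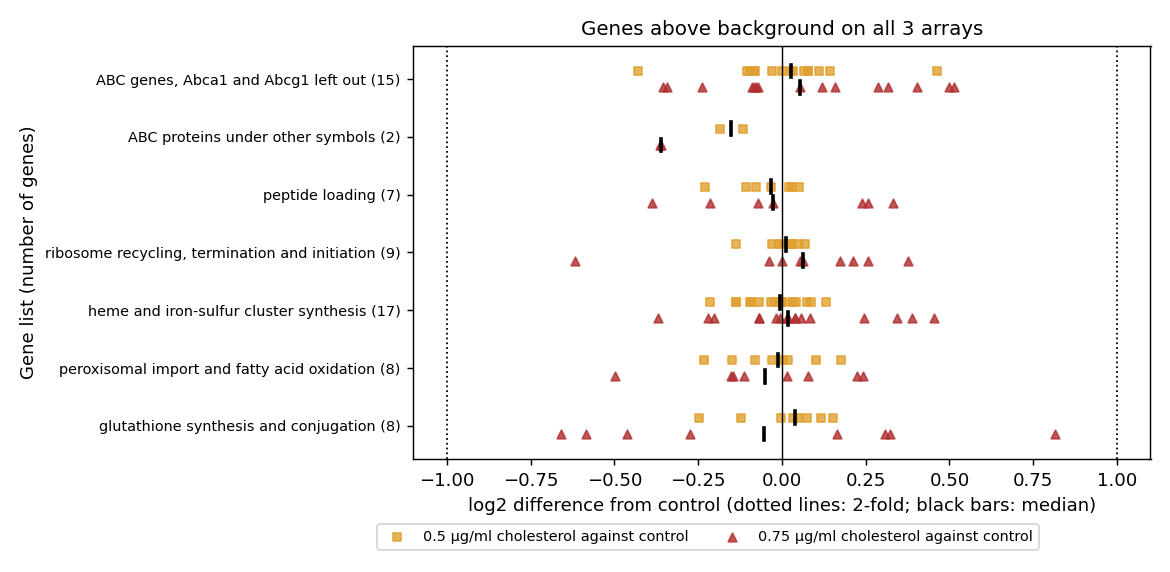
Log2 differences from the control at 0.5 µg/ml (squares) and 0.75 µg/ml (triangles) for genes above background on all 3 arrays, for the 15 transporter genes and 6 lists of partner genes, with the median as a black bar. No point passes the dotted 2-fold lines, and the points are spread more widely at 0.75 µg/ml.

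Partners of the ribosome-linked members were measured for 9 of 15 listed factors of translation termination, recycling and initiation. All 9 were above background, and at 0.75 µg/ml 6 were higher and 2 lower than the control, and the median of their log2 differences was 0.06. The release factor genes Gspt1 and Etf1, which act just before Abce1, differed by 0.38 and 0.26. The stress kinase gene Eif2ak4, whose product GCN2 phosphorylates eIF2, was at 351, 319 and 229, or -0.62, and the eIF2 subunit gene Eif2s3x differed by -0.04.

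Heme and iron-sulfur cluster genes, which surround Abcb6, Abcb8 and Abcb10 in function, had 17 of 19 measured members above background on all arrays. At 0.75 µg/ml 10 of these were higher and 7 lower, with a median of 0.02. Nubp2, a cytosolic iron-sulfur assembly factor, and the glycine carrier Slc25a38 differed by 0.45 and 0.39, and the heme synthesis enzymes Ppox and Alad by -0.37 and -0.22. For the peroxisome, home of Abcd3, 8 of 14 measured genes were above background, with 4 higher and 4 lower at 0.75 µg/ml and a median of -0.05. The import factor Pex14 and the beta-oxidation enzyme Hsd17b4 differed by 0.24 and 0.22, the peroxisomal tether Acbd5 by -0.50 and the membrane assembly factor Pex3 by -0.15.

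Glutathione genes, whose products make the conjugates that Abcc1 exports, differed in both directions at 0.75 µg/ml, and Abcc1 differed by 0.05. Of 16 measured, 8 were above background on all arrays, with 4 higher and 4 lower than the control. Gclm, a subunit of the enzyme that limits glutathione synthesis, was at 211, 229 and 371, or 0.81, and Gsto1 differed by 0.32. The transferases Mgst2 and Gstp1 were at 1339, 1383 and 849 and at 1152, 1151 and 768, or -0.66 and -0.58. The 0.5 µg/ml values of these 3 genes were near the control. Across the 6 lists no gene past the level filter differed 2-fold in any comparison, beside the shares of 0.146%, 1.93% and 1.59% given above.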

How the data were processed

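The deposited table gives each probe set 1 intensity for every array, and the range of the values shows a linear scale. How the authors corrected background and normalized is not given in the sources used. Per the labels' protocols, RNA was extracted with Trizol and labelled by a whole-transcript sense method. Of 28846 probe sets, 22206 were for transcripts and 19572 of those had 1 gene symbol, 0 several and 2634 none in the platform annotation. All 46 transporter gene identifiers matched the reference gene table (GRCm38.p6). Log2 differences between arrays were taken with no further normalization. For the 55 genes with several probe sets the brightest was used. The level filter was a mean log2 value of at least 5.02, the median over all probe sets, which 10940 of 19505 genes and 19.8% of negative controls passed. Where 1 value of a pair was under background, the fold is given as a lower bound, with that value raised to background. Intervals for list medians are 95% order-statistic intervals over genes, not over samples.

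Genes above background on an array were named, with the dim genes of highest and lowest mean log2 value in each subfamily, and other dim genes were added after their values were seen. The genes, lists and rules were chosen with earlier results of these data known. Some genes of the family and of the lists are not reported here. The counting of differences was tested on simulated data with planted shifts larger than the 2-fold bar, and the 2 normalizations on a rescaled array. The promoter search and the lower-bound folds were not tested in this way. The software was pandas 2.3.3, numpy 2.4.6, scipy 1.17.1 and matplotlib 3.10.9 under Python 3.11.15. Alternatives were 2 normalizations, the mean of probe sets, dim values raised to background, no level filter, a 1.5-fold bar and other background levels.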

Additional observations from a re-analysis of the deposited data

How the results depend on the processing

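The count of transporter genes at least 2-fold different was 0 in each comparison and stayed 0 with median centring, quantile normalization and no level filter. It was also 0 with the mean of probe sets and with dim values raised to background. These settings could not raise it, since each gene had 1 probe set and raising dim values only shrinks differences. The 2 normalizations moved the log2 differences of the 15 genes above background on all arrays by at most 0.06. The largest difference among those genes was 0.60, against the 2-fold bar of 1, so the normalizations were a weak check. With the 1.5-fold threshold the count was 0 at each dose and 1 between the doses. The number above background on all arrays was 15 with each array's own 95th percentile or quantile normalization, and 2 with the 99th percentile. The mean of probe sets left it at 15 and could not change it. The median differences stayed within their intervals over genes. At 0.75 µg/ml the median of 0.02 became -0.02 with median centring, -0.01 with quantile normalization and -0.07 over the genes past the filter. Over the 15 genes above background on all arrays it was 0.05, so its sign depended on the genes used. The intervals cover 46 genes, 28 of them under background on all arrays. Staying inside them says nothing of the spread between samples. Of the 15 genes above background on all arrays, 1 changed direction, Abca3 at 0.5 µg/ml with median centring, from a difference of 0.00. No paired analysis was possible because each group had 1 array. Signal near background limits Abcb10, Abcd3 and Abcg3, which crossed it, and Abca2, Abcf3 and Abcg2, which lay just above it.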
